A study of Mus musculus with 17 samples.

Results

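Among the nuclei of the mouse neocortex, a small set was picked by 7 genes, Cpne7, Nnat, B130024G19Rik, Adamtsl1, Lypd1, Gm32647 and Slc26a4. The rule required no excitatory marker. A cell barcode of the single nucleus data counted as a member when it had 600 to 5000 detected genes, under 5% mitochondrial UMIs (unique molecular identifiers, each standing for 1 captured RNA molecule) and at least 3 of the 7 genes with a UMI. It also had to hold no UMI of Gad1 or Gad2, the enzymes that make GABA, and none of Rprm, Syt6, Deptor, Galnt14 and Slc1a3. Of 31486 barcodes that passed the limits on genes and mitochondrial UMIs, 579 were members (1.84%), 320 from control mice and 259 from stressed mice. The 7 genes chose these nuclei, so their levels there are a description.

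The mice were males, C57BL/6 by their labels and C57Bl/6J by the study's methods. Stressed mice went through chronic unpredictable stress (CUS) for 12 days, with 3 varying stressors per day, and control mice lived in a separate room and were only handled. Nuclei of the neocortex were sequenced by sNucDrop-seq, a droplet method, in 4 control and 4 CUS mice at postnatal day 80. Nuclear RNA of the medial prefrontal cortex (mPFC) was sequenced in bulk in 4 other control and 5 other CUS mice at postnatal day 90. No mouse carried a transgene by its label, and each mouse was 1 replicate.

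Excitatory neurons of the neocortex release glutamate, which Slc17a7 (VGLUT1) loads into synaptic vesicles, and they fall into types that differ by layer and by the region to which their axons run. Of the 7 genes, Cpne7 encodes a copine, a calcium-dependent membrane-binding protein. Nnat (neuronatin) is an imprinted gene, expressed from the paternal copy, whose small membrane protein acts at the endoplasmic reticulum. Lypd1 encodes a Ly6-family protein that binds nicotinic acetylcholine receptors, Adamtsl1 a secreted matrix protein and Slc26a4 (pendrin) an anion exchanger, while B130024G19Rik and Gm32647 are listed as noncoding transcripts.

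Nnat carries the main result in bulk tissue, so its promoter is shown first. It spans chr2:157559828-157560127 of GRCm38.p6 on the + strand, from 250 bases before to 50 after the start in RefSeq, written 5′ to 3′ with each CG dinucleotide, the target of DNA methylation in imprinted genes, in capitals. Nnat lies within Blcap (chromosome 2, 157556362 to 157571274), which is read from the opposite strand.
Nnat: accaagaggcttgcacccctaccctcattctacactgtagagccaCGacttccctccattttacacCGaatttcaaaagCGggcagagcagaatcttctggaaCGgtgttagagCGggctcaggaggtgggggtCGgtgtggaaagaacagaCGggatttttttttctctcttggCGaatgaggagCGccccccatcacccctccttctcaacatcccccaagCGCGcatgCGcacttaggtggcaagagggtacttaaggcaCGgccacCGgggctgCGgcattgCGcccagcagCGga
This window held 17 CG dinucleotides, and 31.4% of 32851 RefSeq promoters of the same length held as many or more (median 7). The letters CCATNTT, the core bound by the factor Yy1 that the study follows, occurred 1 time in it, and on either strand in 16.1% of all these promoters. A match of letters does not show binding. Of the 7 genes, 4 had an entry in the promoter table.

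The members had a median of 3472 UMIs and 1977 genes, against 2094 UMIs and 1316 genes over all kept barcodes and 2644 and 1583 in other excitatory nuclei. Classes chosen by 3 or more markers ranged from 2658 UMIs (layer 6-like) through 3417 (claustrum-like) to 3666 (layer 2/3-like), the last above the members. Between 41 and 125 members came from each mouse, with 174304 to 488279 UMIs summed per mouse. Most members had exactly 3 of the 7 genes (378), and 152 had 4, 32 had 5, 17 had 6 and none all 7. Just outside the threshold, 1184 barcodes met every other condition with 2 of the genes, at a median of 2524 UMIs against 3274 in members with 3. Of the 1497 kept barcodes with 3 or more of the genes, 412 held Gad1 or Gad2, 724 held an excluded gene and 218 held both. No member's barcode sequence was shared with a kept barcode of another library, and 81 members (14.0%) had a doublet score over 0.2, against 12.7% of kept barcodes.

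Each of the 7 genes was concentrated in the members without being confined to them. The members held 2.83% of all UMIs of the kept barcodes, but 17.0% of those of B130024G19Rik, 15.3% of Cpne7, 13.5% of Slc26a4, 13.4% of Gm32647, 12.3% of Adamtsl1, 12.1% of Nnat and 11.9% of Lypd1. Levels of a class are given in CPM, the counts-per-million unit over all UMIs of the class. Cpne7 stood at 323 CPM in the members and at 22.6 in other excitatory nuclei. The latter were 6317 nuclei with a UMI of Slc17a7, none of Gad1, Gad2 or Slc1a3, and at most 1 of the 7 genes, which keeps their values low by choice. Nnat stood at 389 against 27.5 on this scale and Lypd1 at 307 against 34.2. None of these comparisons is a test, since the same UMIs chose the nuclei.

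**Figure D1:**
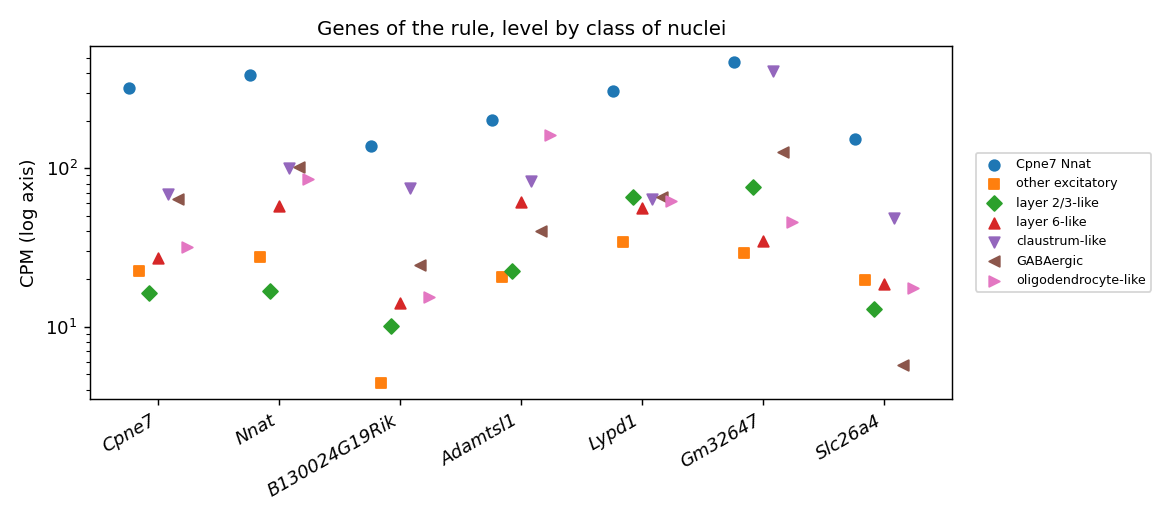
Levels of the 7 genes that define the nuclei, in CPM over all UMIs of the class (log axis), in the members (Cpne7 Nnat) and in 6 other classes of nuclei. The members are highest for each gene by the choice of nuclei, with Gm32647 in claustrum-like nuclei (411) nearest to its level in the members (469).

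Classes that the rule did not fill showed where else each gene is read. In 644 claustrum-like nuclei (3 or more of Nr4a2, Gnb4, Synpr, Ntng2, Gng2 and Oprk1, no member among them), Gm32647 reached 411 CPM against 469 in the members, and this class held 13.1% of its UMIs. Adamtsl1 stood at 162 in 1032 oligodendrocyte-like nuclei against 202 in the members, and Nnat at 102 in 4162 GABAergic nuclei against 389. Slc26a4 was lowest in GABAergic nuclei, at 5.69 against 152 in the members. At least 1 UMI of Cpne7 was present in 62.0% of the members, and with every nucleus thinned to 1000 UMIs in 31.3% of the members, 5.97% of GABAergic nuclei and 2.51% of oligodendrocyte-like nuclei. For Nnat the thinned shares were 31.1%, 7.61% and 5.99%. No single gene of the 7 was present in all members.

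Some excitatory genes that the rule did not use were present in the members. Slc17a7 was detected in 55.3% of the members, at 231 CPM, against 471 in other excitatory nuclei, which were chosen by it. In classes not chosen by it, Slc17a7 stood at 254 CPM (layer 6-like), 197 (layer 2/3-like) and 233 (claustrum-like), near its level in the members. Of 10 excitatory neuron markers, Slc17a7 among them, 8 were lower in the members than in other excitatory nuclei, 4 of them in 8 of 8 mice. Their sum was 1895 against 2548 CPM. Of 12 GABAergic markers 9 were higher, 1 of them in 8 of 8 mice, with a sum of 424 against 290 CPM. Neurod6, a transcription factor of cortical excitatory neurons, was detected in 25.6% of the members (median 3472 UMIs), 5.84% of GABAergic nuclei (median 2284.5 UMIs) and 8.82% of oligodendrocyte-like nuclei (median 1381 UMIs). Neurod2, a related factor, followed with 27.6%, 4.71% and 7.95%. Slc30a3, the vesicular zinc transporter of a part of the excitatory neurons, stood at 64.6 CPM in the members and 64.4 in other excitatory nuclei.

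By layer markers the members matched no single type. Of 9 markers of near-projecting neurons 5 were higher than in other excitatory nuclei, 4 of them in 8 of 8 mice, and 4 lower, 1 in 8 of 8. Their summed level was 661 CPM against 267. Trhr, the receptor of thyrotropin-releasing hormone, stood at 43.1 against 6.46 CPM in other excitatory nuclei, higher in 8 of 8 mice. Angpt1 (54.5 against 22.6) and Etv1 (125 against 67.8) were also higher in 8 of 8, but Tshz2 was not (72.2 against 83.4), and the type's defining Slc17a8 and Sla2 were at 2.11 and 0. Of 14 claustrum and deep intratelencephalic markers 10 were higher, among them Synpr (150.3 against 56.0), Oprk1 (37.6 against 13.8) and Nr2f2 (73.0 against 8.41), each in 8 of 8 mice. Of 11 layer 6 corticothalamic markers 10 were lower, 6 of them in 8 of 8 mice, from Foxp2 (13.1 against 107) to Zfpm2 (221 against 237), and Crym was higher in 8 of 8 (135 against 59.9). The rule fixes part of this, since it removes nuclei with Rprm or Syt6, both corticothalamic genes, from the members and not from the other excitatory nuclei. Upper layer markers went both ways, with 7 of 11 lower, among them Rorb (109.8 against 248), and Otof (50.7 against 20.7) and Cdh9 (255 against 115) higher in 8 of 8 mice. Of 9 layer 6b and subplate markers 4 were higher and 5 lower, none in the same direction in 8 of 8 mice. Of 11 layer 5 markers 6 were higher and 5 lower, with Etv1 the one that went the same way in 8 of 8 mice. Of 14 hippocampal, entorhinal and piriform markers 12 were higher. Zbtb20 (409 against 112) and Lmo3 (147 against 119.8) were higher in 8 of 8 mice, Dkk3 (97.1 against 196) and Abi3bp (30.8 against 63.8) lower in 8 of 8, and the defining Prox1 stood at 5.49 against 5.18 and Meis1 at 5.49 against 4.26. No cell type name beyond the leading genes is given here.

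Several genes outside the rule stood out in these nuclei. Of 4126 genes with at least 50 CPM and a UMI in at least 10% of the members, 75 were over 2-fold higher in the members than in other excitatory nuclei, not counting the rule's genes, 66 of them in 8 of 8 mice. The largest ratio belonged to Dcn (decorin, a matrix proteoglycan), at 61.6 against 2.87, a ratio of 21.5, higher in 7 of 8 mice. Next came Pde11a, a phosphodiesterase of cyclic nucleotides (51.1 against 5.23), and Nr2f2 (COUP-TFII), a nuclear receptor that patterns the caudal and ventral forebrain. Htr4 and Htr2c, both serotonin receptors, stood at 59.1 against 10.6 and at 193 against 63.5. Nkain3 (348 against 77.0), Arhgap6 (194 against 45.1), Zbtb20 (409 against 112) and Dpyd (387 against 112) had higher levels at smaller ratios. Some of these genes had levels near or above these in other classes. In claustrum-like nuclei Nr2f2 was at 55.4 and Htr2c at 154 CPM. In GABAergic nuclei Htr2c was at 189.6, Htr4 at 67.2, Pde11a at 63.4 and Zbtb20 at 379, and Zbtb20 reached 686 in oligodendrocyte-like nuclei. Dcn was at 14.8 in claustrum-like nuclei and at 5.08 in GABAergic nuclei. Dcn, Nr2f2 and Nkain3 also climbed with the number of the 7 genes detected, Dcn from 19.5 with 2 genes to 29.2 with 3 and 111 with 4 or more, and Nr2f2 from 28.5 to 50.8 and 107.

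Relatives of the defining genes and receptors completed the profile. Cpne6, another copine, stood at 279 CPM against 97.3 in other excitatory nuclei, and Cpne4 at 184 against 128, while Cpne9 was lower (51.5 against 114). Ly6h, a Ly6 relative of Lypd1, stood at 152 against 83.1. Gria1, an AMPA receptor subunit, stood at 1440.4 against 669.8, and Gabra2, a GABA-A receptor subunit, at 772 against 321. The 2 corticosteroid receptors differed in direction, with the mineralocorticoid receptor Nr3c2 at 219 against 104 and the glucocorticoid receptor Nr3c1 at 129 against 189. Genes that were lower included Pamr1 (23.6 against 78.2), the potassium channel Kcnh5 (40.1 against 123) and Cdh18 (230.1 against 610.3).

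Members differed from each other in genes of several kinds. Among the 12 genes with the greatest variance beyond counting error were Erbb4, Cntn5, Tenm2, Zbtb20, Sgcz, Zfp804b, Sst, Grik1, Galntl6, Lrrtm4 and Lrp1b. Sst and Erbb4 are read mainly by GABAergic neurons. Summed UMIs of 8 endothelial and mural markers were 1 to 7 in the members of each control mouse, and 4, 80, 2 and 11 in CUS replicates 1 to 4. Of the 80, 76 lay in 1 nucleus of CUS replicate 2.

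The share of members did not differ between conditions beyond the spread between mice. Of kept barcodes, members made up 1.62%, 2.03%, 2.52% and 1.81% in control replicates 1 to 4 and, in the same order, 1.41%, 1.68%, 1.69% and 1.70% in CUS mice. Control replicate 1 lay among the CUS mice, and the other control mice above them. The means were 2.00% ± 0.387 (SD, n = 4) and 1.62% ± 0.143 (n = 4), a difference of -0.376 percentage points (P = 0.114, two-sided exact permutation test, smallest P possible 0.0286). Without control replicate 1 the difference was -0.499 (P = 0.0286 by the same exact test), the smallest value that design allows. Depth split the mice in the same way. Median UMIs per kept barcode were 1886, 2159, 2566 and 2165 in control replicates 1 to 4. In CUS replicates 1 to 4 they were 1992, 1863, 1932 and 2146, all below control replicates 2 to 4. The rule needs detected UMIs, so share and depth cannot be told apart in the full counts. With each nucleus thinned to 1000 UMIs the shares were 0.718% ± 0.158 and 0.682% ± 0.159 (P = 0.629, exact permutation test). They count the 206 nuclei that met the rule after thinning, of which 148 are members by the full counts.

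**Figure D2:**
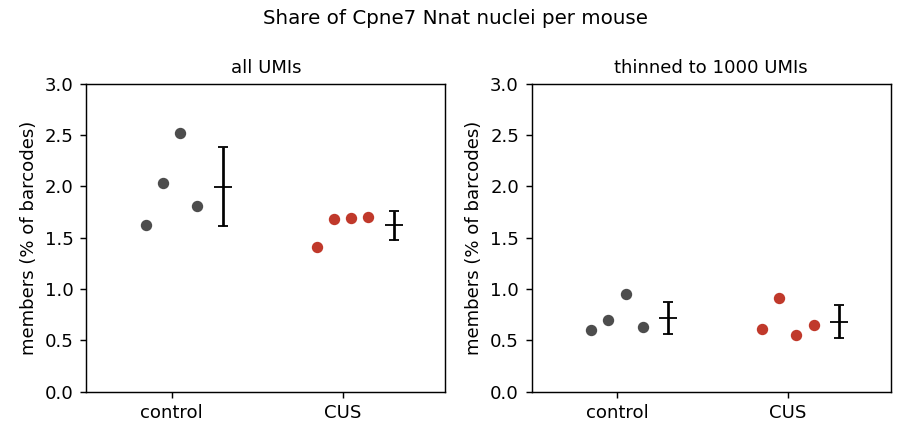
Members as a percentage of barcodes in each control and CUS mouse, for all kept barcodes and for barcodes of at least 1000 UMIs thinned to 1000 UMIs; marks beside the points are the mean ± SD. The groups overlap in both panels.

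To ask what CUS changed inside these nuclei, UMIs of the members were summed per mouse and compared for 7016 genes. The quasi-likelihood test of edgeR called 2 genes at an FDR of 0.2 (0.0285% of those tested), Ptprr and Zfp804a, both lower in CUS mice. An unadjusted p under 0.05 was reached by 394 genes (5.62%), 205 higher (2.92%) and 189 lower (2.69%). The groups were fully separated, with no overlap of mice, in 207 genes (2.95%), 98 higher (1.4%) and 109 lower (1.55%). DESeq2 called 0 genes, with 174 at an unadjusted p under 0.05.

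Ptprr (ENSMUSG00000020151, mm10 chromosome 10, 116018213 to 116274932) encodes a receptor-type tyrosine phosphatase that acts on MAP kinases. Its level per mouse, in normalized CPM (over the UMIs of the tested genes after TMM scaling), was 258, 212, 217 and 317 in control mice, given in the order of their replicate numbers, and 90.1, 75.4, 130.2 and 153 in CUS mice. Every CUS mouse lay below every control mouse. The mean fell from 251 ± 48.5 (SD, n = 4) to 112 ± 35.6 (n = 4), a log2 fold change of -1.05 (SE 0.22, FDR 0.0815 in edgeR, 401 UMIs in all). Over 18 alternatives the FDR ran from 0.00562 to 0.969 and the log2 fold change from -1.24 to -0.47, and 9 kept the call. The call was lost in edgeR without control replicate 1 (FDR 0.373), 3 (0.228) or 4 (0.317) and without CUS replicate 1 (0.507) or 2 (0.276). It was also lost in members with at least 4 of the 7 genes, where the log2 fold change was -0.47 (FDR 0.969 in edgeR). In other excitatory nuclei the levels were 144 ± 14.0 and 123 ± 17.9 (log2 fold change -0.25, FDR 0.534 in edgeR). The difference between both effects was -0.74 (SE 0.21, unadjusted p 0.000789, FDR 0.988 in edgeR) and did not pass.

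Zfp804a (ENSMUSG00000070866, mm10 chromosome 2, 82053222 to 82259879) encodes a zinc finger protein whose human counterpart lies at a locus associated with schizophrenia. Its normalized level in the members was 487, 401, 419 and 246 CPM in control mice and 138, 308, 234 and 162 in CUS mice. Control replicate 4 lay below CUS replicate 2, so the groups overlapped. The mean fell from 388 ± 102 (SD, n = 4) to 210.4 ± 76.8 (n = 4), a log2 fold change of -0.93 (SE 0.21, FDR 0.15 in edgeR). The FDR over the alternatives ran from 0.00562 to 0.942, and 9 of 18 kept the call. It was lost in edgeR without control replicate 1 (FDR 0.869), 2 (0.712) or 3 (0.773) and without CUS replicate 1 (0.580) or 4 (0.942). In other excitatory nuclei Zfp804a was 194, 232, 200.3 and 202 in control mice and 116, 192, 178 and 129 in CUS mice. The groups there did not overlap, by a narrow margin (194 against 192), with a log2 fold change of -0.45 (FDR 0.434 in edgeR). The difference between both effects was -0.51 (SE 0.17, unadjusted p 0.00419, FDR 0.988 in edgeR) and did not pass. The gene stood at 742 CPM over all UMIs in claustrum-like and 529 in GABAergic nuclei, against 288 in the members. The summed GABAergic markers in the members overlapped between groups, at 293 to 612 CPM in control and 389 to 558 in CUS mice.

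The promoters of these 2 genes are shown because they are the calls in the nuclei, from the same RefSeq windows with CG in capitals, both on the + strand, at chr10:116018113-116018412 for Ptprr and chr2:82053408-82053707 for Zfp804a.
Ptprr: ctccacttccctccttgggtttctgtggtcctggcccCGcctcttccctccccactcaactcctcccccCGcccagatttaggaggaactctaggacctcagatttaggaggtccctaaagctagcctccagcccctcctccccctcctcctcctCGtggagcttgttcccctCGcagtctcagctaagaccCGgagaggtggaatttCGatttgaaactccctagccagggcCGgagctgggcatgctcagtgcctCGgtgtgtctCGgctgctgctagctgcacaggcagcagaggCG
Zfp804a: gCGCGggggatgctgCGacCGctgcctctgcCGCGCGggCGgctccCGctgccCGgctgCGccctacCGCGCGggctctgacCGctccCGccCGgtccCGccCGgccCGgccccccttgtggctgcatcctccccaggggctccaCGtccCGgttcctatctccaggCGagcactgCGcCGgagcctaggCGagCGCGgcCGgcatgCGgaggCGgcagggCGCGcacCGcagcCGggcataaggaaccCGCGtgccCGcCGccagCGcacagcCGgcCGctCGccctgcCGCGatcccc
The Ptprr window held 10 CG dinucleotides, and 43.5% of all promoters held as many or more. The Zfp804a window held 45, which 1.93% of all promoters reached. Neither window held CCATNTT on either strand. The gene starts given above for these 2 genes differ from the RefSeq starts of the windows. The Zfp804a window lies wholly after the start given above (82053222), within the gene by those coordinates. The Ptprr window spans the start given above (116018213), with more of its bases after it than before.

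**Figure D3:**
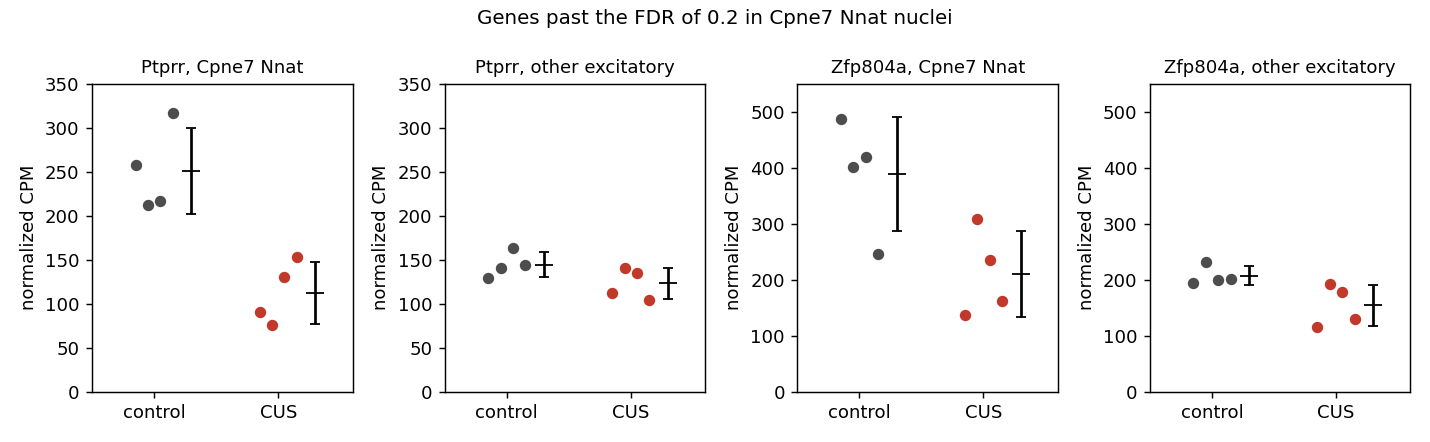
Ptprr and Zfp804a in each mouse, as normalized CPM in the members and in other excitatory nuclei; marks beside the points are the mean ± SD over 4 mice. In the members every CUS mouse is below every control mouse for Ptprr, while for Zfp804a control replicate 4 (246) is below CUS replicate 2 (308).

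Among genes that did not pass, those with the smallest p and no overlap between groups had FDRs of 0.574 to 0.786 in edgeR. On the lower side, Grm3, a presynaptic and glial metabotropic glutamate receptor, was 246, 225, 252 and 284 normalized CPM in control and 99.6, 169.6, 175 and 134 in CUS mice (log2 difference -0.79). Pcsk1, a convertase that cuts prohormones, was 64.5, 89.2, 104 and 129 in control and 52.2, 37.7, 55.8 and 49.8 in CUS mice (-0.95). Dcx, a microtubule protein of migrating neurons, differed by -0.77, Nell1 by -0.71 and Sox5, a factor of deep-layer neurons, by -0.61. The noncoding Man2c1os, Gm45159 and Gm45457 differed by -1.61, -1.44 and -0.93, on 58, 59 and 127 UMIs in all. On the higher side, Egr1, an immediate early transcription factor, was 56.4 ± 17.8 in control and 109 ± 19 in CUS mice (0.91), and differed by 0.60 in other excitatory nuclei. The small GTPase Rasl10a differed by 1.62 on 72 UMIs, with no UMI in control replicate 4, and the phosphodiesterase Pde7b by 0.91. Eif1, Uqcr11, Jkamp, Cplx2, Smpd4 and Atp13a2 differed by 0.63 to 1.01.

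Mical2, an enzyme that oxidizes actin, reached a threshold outside the members. Inside them it was 205, 163, 148 and 174 normalized CPM in control and 275, 270.0, 260.4 and 239.7 in CUS mice, a log2 difference of 0.62 (SE 0.19, FDR 0.775 in edgeR). In other excitatory nuclei it passed the FDR of 0.2, with 0.68 (FDR 0.114 in edgeR), as the only call among 7016 genes there (0.0143%), and in bulk mPFC that of 0.05, with 0.53 (FDR 0.0476 in edgeR) and overlapping groups. The bulk call held in 6 of 14 alternatives (FDR 0.00198 to 0.130) and was lost without control replicate 1 (0.0803 in edgeR), 2 (0.130) or 4 (0.0831) and without CUS replicate 1 (0.0932), 3 (0.0855), 4 (0.112) or 5 (0.106). The difference of its effect between the members and other excitatory nuclei was -0.07 (unadjusted p 0.704 in edgeR).

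**Figure D4:**
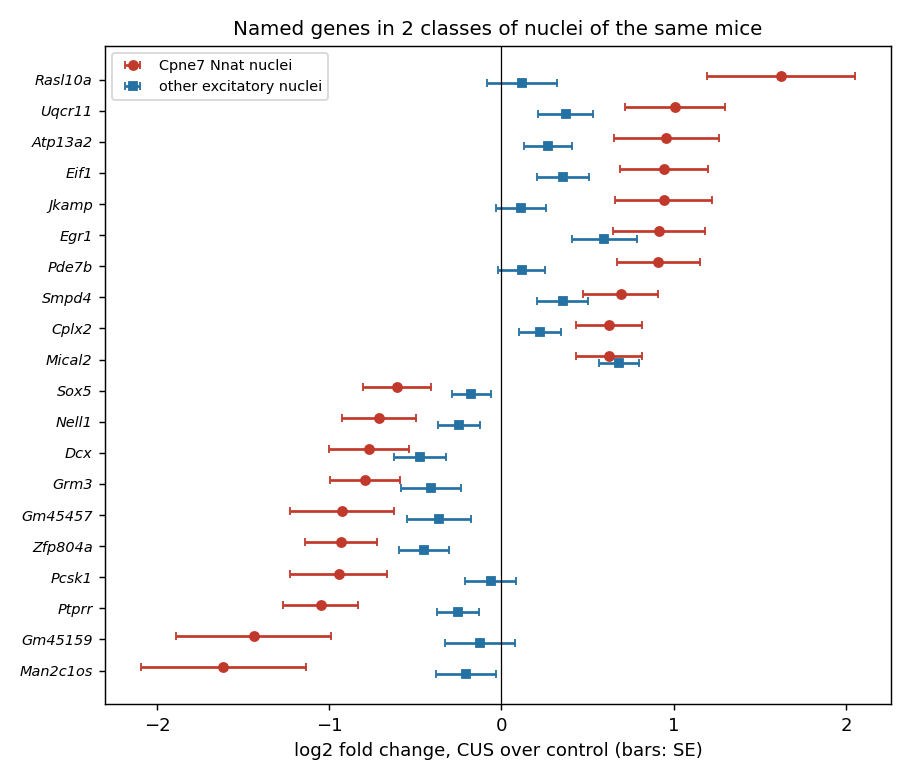
Log2 fold changes of CUS against control for the named genes, in the members and in other excitatory nuclei; bars are the standard error of the edgeR fit. Ptprr (-1.05) and Zfp804a (-0.93) are the only points of the members past an FDR of 0.2.

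No list of genes held a call besides these 2 among all genes, so lists are given by counts. Over all 7016 genes the median log2 difference was 0.00, with 3521 higher and 3495 lower. Glutamate receptors and their auxiliary subunits had 12 higher and 18 lower of 30 tested (median -0.11, and -0.06 without CUS replicate 1, -0.07 without CUS replicate 4 and -0.17 without control replicate 3 or CUS replicate 2). It was -0.02 without nuclei holding UMIs of other cell types. Of the 30, 2 were higher and 6 lower at an unadjusted p under 0.05. Both are larger shares than the 2.92% and 2.69% of all genes tested, and the list as a set was not tested. Besides Grm3, the 8 included Grm8 (-0.54), another presynaptic metabotropic receptor, and Grid1 (-0.53), while Grik1 (0.69), a kainate receptor subunit, stood at 597 CPM in GABAergic nuclei and 106 in the members. Of 11 GABA-A receptor subunits 10 were lower (median -0.23 in the members and -0.16 in other excitatory nuclei), led by Gabrg3 (353 ± 49.0 to 247 ± 61.4 normalized CPM, log2 difference -0.49). At an unadjusted p under 0.05 in edgeR 1 of the 11 subunits was lower and 0 higher. The summed level of these subunits was 4332 to 4801 CPM in control and 3471 to 4199 in CUS mice, without overlap. Many lists were compared in the members, this was the only one whose sums did not overlap, and it was not tested as a set. The sums of the glutamate receptor list overlapped (15847 to 17877 and 14448 to 17509 CPM). So did those of the monoamine and acetylcholine receptor list (1019 to 1182 and 886 to 1032 CPM). The 9 monoamine and acetylcholine receptors tested were all lower (median -0.17), among them Htr4 (-0.68) and the muscarinic receptor Chrm2 (-0.65).

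Synaptic adhesion and guidance genes held no call. Of 43 scaffold and adhesion genes 20 were higher and 23 lower (median -0.04), 3 of them lower and 0 higher at an unadjusted p under 0.05. Of all genes tested, 2.69% were lower at that p, a smaller share than in this list. Slitrk2, an adhesion protein, was 41.6 ± 13.2 normalized CPM in control and 14.4 ± 7.50 in CUS mice (log2 difference -1.31, FDR 0.861 in edgeR, no overlap). Of 26 guidance genes 7 were higher and 19 lower (median -0.12), 3 of them lower and 0 higher at an unadjusted p under 0.05, also a larger share. Unc5c, a netrin receptor, differed by -0.44 without overlap. Neither list was tested as a set. Ribosomal protein genes had 23 higher and 9 lower of 32, with a median of 0.28 in the members (0.16 without control replicate 2, and 0.17 with at least 4 of the 7 genes or without a filter on low counts) and 0.27 in other excitatory nuclei. Their summed level in the members was 1842 to 2172 CPM in control and 1733 to 3091 in CUS mice, and CUS replicate 2 lay below every control mouse. Of 44 potassium channel genes 26 were higher and 18 lower (median 0.15 in the members and 0.01 in other excitatory nuclei). At an unadjusted p under 0.05 in edgeR 1 was higher and 2 lower. Their summed level went the other way, at 12318 to 14627 CPM in control and 11108 to 13173 in CUS mice, with overlap.

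Genes of the stress response and the lists around the defining genes were likewise without a call. Of 18 activity-regulated genes tested 11 were higher and 7 lower (median 0.16). That median was 0.05 without CUS replicate 4, 0.06 without control replicate 1, 0.28 without CUS replicate 2 and 0.08 with at least 4 of the 7 genes. Glucocorticoid-induced genes had 5 tested, 2 higher and 3 lower, with a median of -0.02 (-0.10 to 0.21 with 1 mouse left out, and -0.27 with at least 4 of the 7 genes), among them Sgk1, a kinase induced by corticosteroids (-0.46). Nr3c1 and Nr3c2 differed by 0.00 and -0.28. Of 13 Yy1, Ctcf and cohesin genes 4 were higher and 9 lower (median -0.08), none at an unadjusted p under 0.05, and Yy1 itself differed by -0.03. Imprinted genes had 14 higher and 16 lower of 30, and copines 4 higher and 3 lower of 7. The 7 defining genes differed by -0.48 (Adamtsl1) to 0.34 (Nnat), values that the rule limits, since it needs their UMIs in every member.

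The CUS effect was also compared between the members and other excitatory nuclei of the same mice. The quasi-likelihood test of edgeR called 0 of 7016 genes at an FDR of 0.2 (0% of those tested), with 307 at an unadjusted p under 0.05 (4.38%), and the likelihood ratio test of edgeR called 1, Pde10a. Pde10a, a phosphodiesterase, had the smallest p. It was 439.7, 323, 476 and 491 normalized CPM in members of control mice and 251, 527, 324 and 379.7 in those of CUS mice. In other excitatory nuclei it was 308, 346, 363 and 455 in control and 416, 718, 407 and 431 in CUS mice. CUS replicate 2 was highest in both classes. The difference of the effects was -0.62 (SE 0.14, FDR 0.301 in edgeR). Next in p on this side were Col6a1 (-1.06), Ptprr, Srsf4 (-0.93) and Zfp809 (-1.29), and on the other side Pde7b (0.81), Rasl10a (1.48), Cox7c (1.06), Sgce (0.96) and mt-Rnr2 (0.26). The nuclei with 3 or more layer 6 or layer 2/3 markers, used in place of other excitatory nuclei, gave 1 call (Cntnap5a) and 0.

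In bulk mPFC, from other mice, 2 of the 7 defining genes were lower in CUS mice. Nnat was 8.68, 9.24, 11 and 14.2 normalized CPM in the 4 control mice and 4.83, 4.81, 6.33, 4.80 and 5.54 in the 5 CUS mice. The highest CUS mouse lay below the lowest control mouse. Nnat fell from 10.8 ± 2.47 (SD, n = 4) to 5.27 ± 0.674 (n = 5), a log2 fold change of -1.03 (SE 0.14, FDR 0.00567 in edgeR, 2.06e-08 to 0.0277 over 14 alternatives). Gm32647, a lincRNA (ENSMUSG00000108532, mm10 chromosome 7, 94042691 to 94709171), was 47.9, 48.6, 53.3 and 64.2 in control and 21.7, 36.3, 31.1, 27.5 and 30.2 in CUS mice, again without overlap. It fell from 53.5 ± 7.53 to 29.4 ± 5.34 normalized CPM, a log2 fold change of -0.87 (SE 0.13, FDR 0.00681 in edgeR, 5.07e-08 to 0.0287 over the alternatives). Of the 18394 genes tested in bulk, 3.29% passed the FDR of 0.05, and 2.13% were lower. Groups did not overlap in 8.76% of all genes, and 4.7% did so in the lower direction.

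Some markers of other regions and cell types also differed in the same bulk samples, in both directions. Of 13 claustrum and deep intratelencephalic markers tested there 2 fell, Nr4a2 from 8.50 ± 1.96 to 2.53 ± 0.574 normalized CPM (log2 fold change -1.76, FDR 0.00107 in edgeR) and B3gat2 (-0.61). Of 13 hippocampal, entorhinal and piriform markers 3 fell, Ndst4 (-3.59), Abi3bp (-1.32) and Zbtb20 (-0.47), and Grik4 rose (0.59). Ndst4 was 9.33, 74.7, 18.6 and 101.8 in control and 2.98 to 6.51 in CUS mice. Of 10 astrocyte markers 3 fell, Aqp4 (-0.69), Gja1 (-0.56) and Slc4a4 (-0.48). The summed levels of these lists overlapped between groups, at 771 to 988 normalized CPM in control and 768 to 1082 in CUS mice for the claustrum list, 975 to 1304 and 1004 to 1053 for the hippocampal list, and 2369 to 2776 and 2155 to 2503 for astrocytes. Oligodendrocyte precursor markers, with 1 of 8 lower, summed to 338 to 419 in control and 265 to 327 in CUS mice, without overlap. Excitatory neuron markers had 2 of 10 higher, Slc17a8 (0.51) and Neurod6 (0.46), striatal markers 1 of 15 (Pde10a, 0.61) and upper layer markers 1 of 11 (Lamp5, 0.39), and none of these 3 lists had a lower call. Corticothalamic and near-projecting markers had 1 call in each direction, and oligodendrocyte and thalamic markers 1 lower each. GABAergic, endothelial, microglia, layer 5 and layer 6b markers had none. The part of these markers in the fall of Nnat and Gm32647 was not tested.

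The other 5 defining genes did not pass in bulk. Their log2 fold changes were -0.14 (Adamtsl1), -0.11 (Cpne7), 0.02 (Lypd1), 0.14 (B130024G19Rik) and 0.17 (Slc26a4), with FDRs of 0.41 to 0.931 in edgeR and overlapping groups. Cpne7, for instance, was 28.6 ± 4.77 normalized CPM in control and 26.5 ± 4.54 in CUS mice. In bulk tissue, fewer cells of a type and less RNA per cell cannot be told apart. The called genes of the nuclei did not pass there, Ptprr with -0.11 (FDR 0.464 in edgeR) and Zfp804a with -0.23 (FDR 0.236 in edgeR). Among the other named genes, Pcsk1 (-0.49, FDR 0.0399 in edgeR) and Smpd4, a sphingomyelinase (0.40, FDR 0.0142 in edgeR), passed in bulk without overlap, in the direction of their difference in the members. The Pcsk1 call held in 6 of 14 alternatives (FDR 0.00310 to 0.128 in edgeR or DESeq2), being lost without control replicate 1 (0.0753) or 2 (0.128) and without any 1 of the 5 CUS mice (0.0578 to 0.107). That of Smpd4 held in 12 (4.41e-05 to 0.0531), being lost without control replicate 2 (0.0525).

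**Figure D5:**
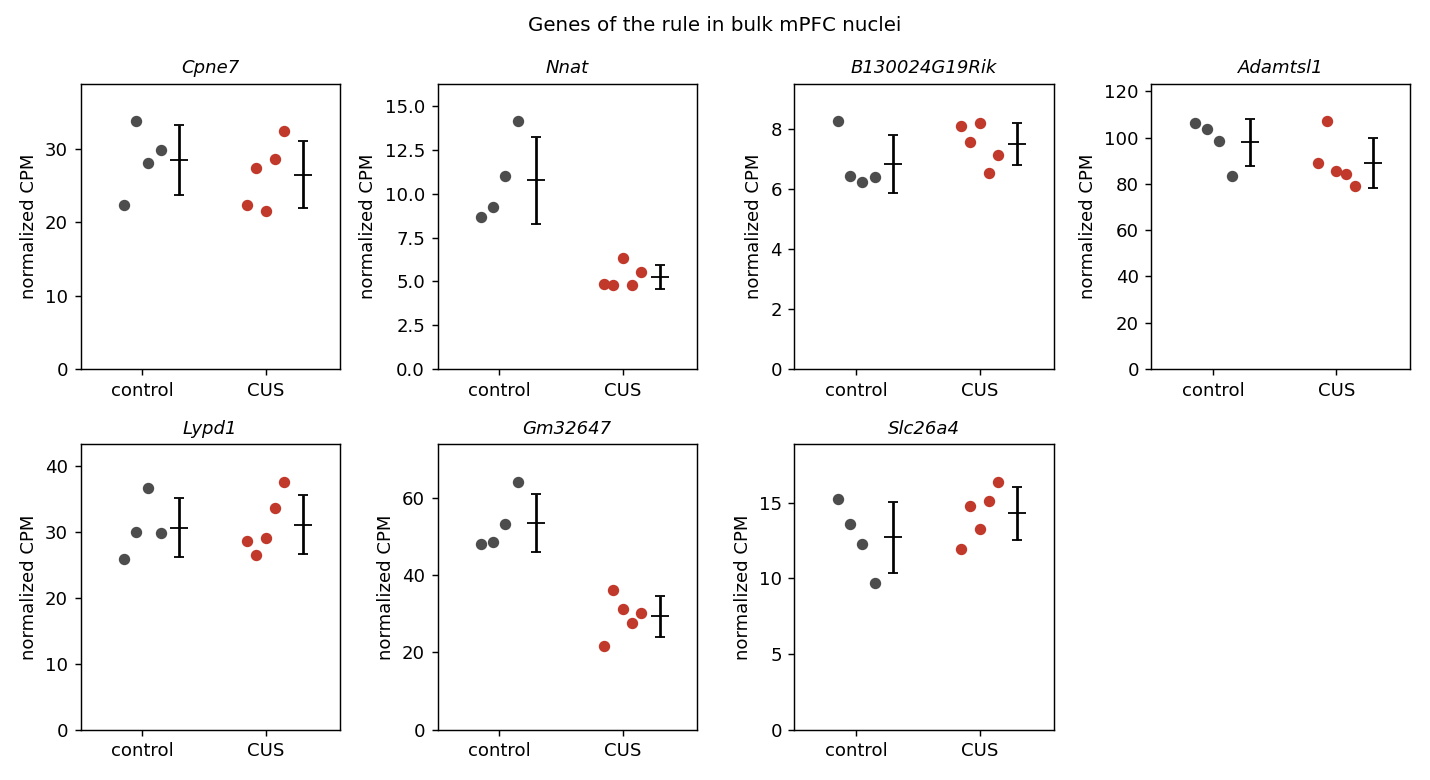
The 7 defining genes in bulk mPFC nuclear RNA, as normalized CPM in each of 4 control and 5 CUS mice (axes from 0); marks beside the points are the mean ± SD. Nnat and Gm32647 have every CUS mouse below every control mouse, and the other genes overlap.

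The members cannot test the fall of Nnat and Gm32647 seen in bulk, since the rule selects on both genes, and their levels there are given as a description. Nnat was 457, 263, 498 and 323 normalized CPM in members of control mice and 655, 584, 301 and 433 in those of CUS mice. Gm32647 was 518 ± 27.2 and 478 ± 75.5 normalized CPM in the members of control and CUS mice. Over all kept barcodes, summed per mouse after the data had been seen, Gm32647 was 116 to 143 normalized CPM in control and 85.7 to 115 in CUS mice, without overlap (as were 5.17% of 5265 genes, 3% in the lower direction). Its log2 difference there was -0.29 (unadjusted p 0.0214, FDR 0.584 in edgeR). With the members left out, Gm32647 was 104 to 130 in control and 76.2 to 108 in CUS mice, with overlap (-0.29, unadjusted p 0.0259, FDR 0.584 in edgeR). Nnat differed by 0.18 over all kept barcodes, with overlap. The bulk tissue was mPFC at postnatal day 90 and the nuclei came from neocortex at postnatal day 80, so region, age and method cannot be told apart. By the study's methods the bulk mice had also gone through behavioral tests before their tissue was taken, while the mice for nuclei were taken after their final stressor.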

How the data were processed

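The authors aligned reads to mm10 and deposited raw counts, UMIs per gene and barcode for 5000 barcodes per mouse (exonic and intronic reads on the gene's strand) and uniquely mapped STAR reads per gene in bulk. No deposited value was normalized. Kept barcodes held 6074138 to 15459579 UMIs per mouse, and bulk libraries 26188825 to 30525015 reads.

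UMIs of the members were summed per mouse, and genes with summed UMIs over 10% of the number of member nuclei entered edgeR 4.0.16 under R 4.3.3 (TMM, quasi-likelihood test, Benjamini-Hochberg FDR 0.2; bulk 0.05 after filterByExpr). The effect in the members was compared with that in other excitatory nuclei by a class by condition term with a mouse term. The study's batch term could not be used, since the labels give no batch. The study reports a profound batch effect among its mice for nuclei, and the fits here do not remove it. Shares were compared by two-sided exact permutation tests.

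Alternatives were the likelihood ratio test, DESeq2 1.42.0, its size factors, no TMM, no filter, a replicate block, a doublet score (rebuilt after Scrublet) of at most 0.2, at least 4 of the 7 genes, at least 1000 genes, members free of UMIs of 9 genes of other cells, and each mouse left out. Doublets were otherwise kept. In data simulated for the members (7016 genes), the quasi-likelihood test recovered 66% of 200 genes shifted by 1 (log2), with 17.0% false calls. It recovered 97% of those shifted by 2, with 19.8%. With 200 changed genes the FDR cutoff lies at a larger p than with the 2 calls in the members. These shares therefore do not give the power of the test in the real data.

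Genes named are the calls, up to 10 non-overlapping genes of smallest p per direction, the 7 genes of the rule, leading genes of fixed lists, 5 per direction of the class by condition term and the 12 most variable. Some genes that meet these rules are not reported here. Genes by ratio to other excitatory nuclei were picked after their values were seen. The members and lists were chosen with earlier results of these data known. Mice of a group differed by more than counting error (chi-square per degree of freedom 1.47 to 2.64 in the members).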

Additional observations from a re-analysis of the deposited data

Results flagged for a closer look

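In 7 of 70 groups of mice tested, 1 mouse stood apart from the others by Dixon's test at the 95% level, and chance flags about 1 in 20 groups. The share of members was lowest in CUS replicate 1 (1.41% of kept barcodes), against 1.68% to 1.70% in the other CUS mice. In the members, control replicate 4 was highest for Man2c1os (77.6 normalized CPM, counts-per-million after TMM scaling) and lowest for Lypd1 (233), against 352 to 357 for Lypd1 in the other control mice. CUS replicate 2 was lowest for Gm45159 (6.28). CUS replicate 1 was highest for Egr1 (138) and for Cplx2 (484), against 333 to 339 for Cplx2 in the other CUS mice. In bulk, 1 control mouse was highest for B130024G19Rik (8.27 normalized CPM).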

How the results depend on the processing

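The share of members was lower in CUS mice under all 13 alternatives, with differences of -0.0359 to -0.499 percentage points, -0.499 to -0.201 with 1 mouse left out. The smallest, -0.0359, was that at 1000 UMIs per nucleus. Only leaving out control replicate 1 passed the threshold (P = 0.0286, exact permutation test). The number of genes called in the members was 2 under the likelihood ratio test, both other scalings and the replicate block, 4 without a filter on low counts (Flt1 and Rgs5 added, of which CUS replicate 2 held 23 and 28 UMIs and the other mice 0 to 2 each, 76 of its 80 endothelial and mural UMIs lying in 1 nucleus), 1 with at least 1000 genes or without nuclei holding genes of other cells, and 0 with DESeq2, with the doublet filter and with at least 4 of the 7 genes. With 1 mouse left out it was 0 to 2. The class by condition term gave 1 call under the likelihood ratio test and without a filter (Pde10a in both) and 1 against layer 6-like nuclei (Cntnap5a), 0 without TMM, with the doublet filter and against layer 2/3-like nuclei, and 0 to 2 with 1 mouse left out. In bulk, 2 of the 7 genes were called under all 14 alternatives. The cause of the lost calls was not tested. The replicate numbers did not pair the mice (correlations of deviations -0.064 to 0.069). Between control and CUS mice of unlike number these correlations ran from -0.115 to 0.107. The replicate block left the share at -0.376 (P = 0.125, exact permutation test, the smallest that 4 pairs allow, so that it could not pass). It left 2 calls in the members and 2 in bulk. In bulk it ended the calls of Mical2 (FDR 0.0713 in edgeR), Pcsk1 (0.113) and Smpd4 (0.0531). With 41 to 125 members per mouse, genes of few UMIs could not be compared.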
